A study of Mus musculus with 4 samples.

Results

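Transcripts of 10 genes for receptor tyrosine kinases outside the ERBB family and their ligands were examined in 4 cell lines of murine small cell lung cancer, SCLC. The set held 9 receptors (Fgfr1, Fgfr2, Fgfr3, Fgfr4, Kit, Met, Ret, Axl and Ddr1) and 1 ligand (Kitl), taken by symbol from the 54641 gene symbols of the deposited table, and all 10 were present. The lines came from an autochthonous mouse model with conditional loss of Rb1 and Trp53 in the lung (adenoviral Cre given through the trachea, promoter not stated), so every line shares both deletions. P1, P4 and P5 were grown from primary lung tumors (n = 3 lines) and M1 from a liver metastasis (n = 1), although the tissue field names lung for all 4. All were cultured untreated in RPMI with serum, and each line was sequenced as 1 library, so that a line has no replicate. The genotype field calls all 4 lines SCLC WT with a running number, without saying what WT refers to. Values are CPM, read counts scaled so that each library sums to 1000000.

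Receptor tyrosine kinases are single-pass membrane proteins that dimerise when a ligand binds, phosphorylate one another and recruit adaptors which feed the RAS-ERK and PI3K-AKT cascades. FGF receptors bind fibroblast growth factors together with heparan sulfate, KIT binds stem cell factor (the Kitl product), MET binds hepatocyte growth factor, and RET binds GDNF family ligands through GFRA coreceptors. AXL is a TAM receptor for GAS6, and DDR1 is a receptor for collagen. In lung tumors these receptors are known as parallel inputs to the cascades that ERBB2, the receptor the study addresses, also uses.

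The libraries had similar depth but not similar complexity. Between 9527011 and 13890726 reads were assigned to genes, yet the symbols above 0 numbered 17824 (P1) and 20578 (P5) against 7985 (P4) and 10074 (M1). Among the 7534 genes that reached 10 CPM in P1 as well as P5, P4 listed 19.8% at 0 and M1 10.1%, which included 1 of 80 core machinery genes in each. For this reason zeros are quoted as listed values and are never used as the base of a ratio. Differences of log2(CPM + 1) below do include them. As a check of the model, Trp53 was at most 0.260 CPM in every line, while Rb1 was at 10.3 (P1) and 13.2 CPM (P5) and listed at 0 in the other lines. Because exons that remain can still give reads, these values are no test of the deletion. Intervals below are exact 95% Poisson intervals of the reads, and cover counting error only.

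Axl, Met and Ddr1 were the receptors above 0 in all 4 lines, and Axl was the most even of them. Axl, the TAM receptor tied to invasive behaviour and drug resistance in many carcinomas (chr7:25756500-25788924 in the RefSeq annotation of GRCm38.p6, as for all genes here), was at 238, 200, 298 and 237 CPM in P1, P4, P5 and M1. P1 and M1 did not differ beyond counting error (intervals 229 to 249 and 228 to 246 CPM), and the highest line was 1.49 times the lowest. Across all genes tested, 45.1% were above 0 in all 4 lines.

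Met, the receptor for hepatocyte growth factor (chr6:17463349-17573980), was at 88.8, 113, 33.8 and 28.3 CPM in P1, P4, P5 and M1. P1 and P4 formed the upper pair and P5 and M1 the lower pair, whose intervals overlapped (30.6 to 37.4 CPM and 25.3 to 31.6 CPM). Ddr1, the epithelial collagen receptor (chr17:35681567-35704741), was at 48.4, 21.2, 108 and 15.2 CPM in P1, P4, P5 and M1. Its order from P5 down to M1 held beyond counting error at each step, and P5 was 7.12 times M1.

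**Figure D1:**
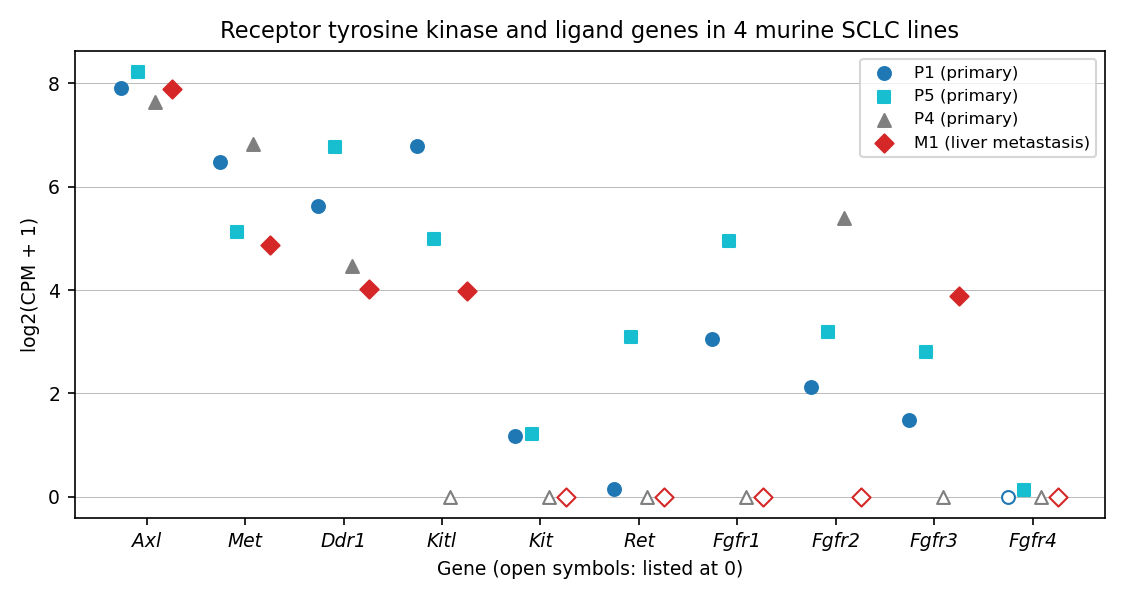
Level of each member gene on the log2(CPM + 1) scale in the 3 primary lines (P1, P5, P4) and the line from a liver metastasis (M1), with 1 point per library and open symbols where a gene is listed at 0. Axl lies between 200 and 298 CPM in every line, whereas Fgfr1, Kit and Ret are above 0 in P1 and P5 only.

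The FGF receptors differed between lines in which member was present. Fgfr1 (chr8:25518759-25575718) was at 7.35 (P1) and 29.8 CPM (P5), with a listed 0 in P4 and M1. Fgfr2, whose product binds FGF7 and FGF10 in its epithelial splice form (chr7:130162451-130266808), was at 3.36 (P1), 41.0 (P4) and 8.07 CPM (P5) and listed at 0 in M1. The P4 level was 12.2 times that of P1 and 5.08 times that of P5. Fgfr3, a receptor of cartilage and epithelia (chr5:33721724-33737068), was at 1.78 CPM in P1, listed at 0 in P4, and at 5.99 CPM in P5 and 13.7 CPM in M1. The interval in M1 (11.6 to 16.1 CPM) lay above that in P5 (4.66 to 7.58 CPM).

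Fgfr4, the receptor that pairs with beta-Klotho in liver (chr13:55152818-55168759), had 1 read in P5 and was listed at 0 elsewhere. P4 thus had reads for 1 of the 4 FGF receptors, Fgfr2, and M1 for 1, Fgfr3, against 3 in P1 and 4 in P5. No FGF receptor was above 0 in all 4 lines. Of the 14888 genes tested, P4 listed 47.7% at 0 and M1 34.0%, so a receptor listed at 0 was not unusual in these libraries.

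**Figure D2:**
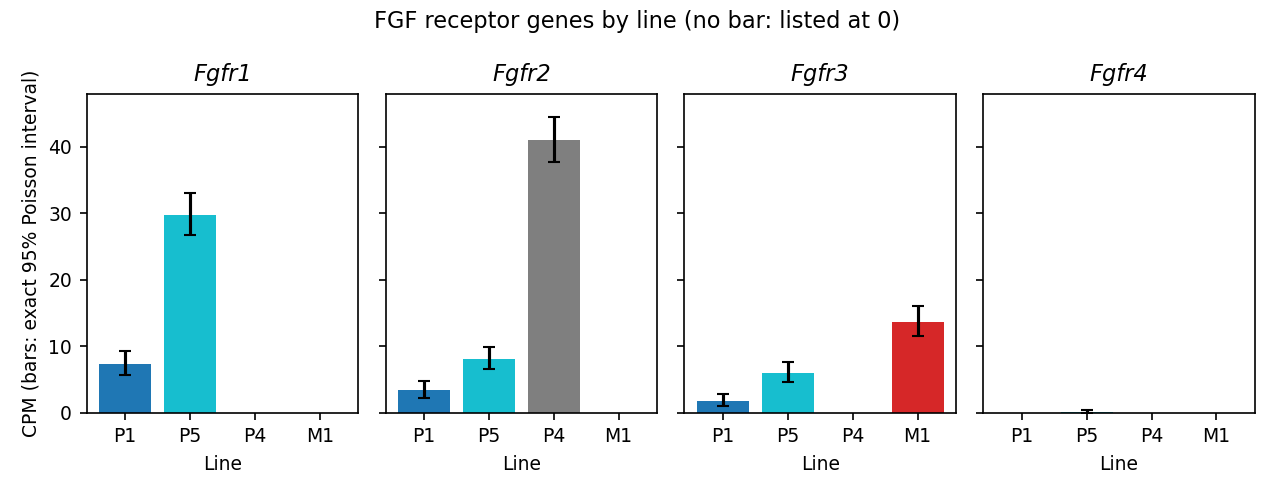
CPM of the FGF receptor genes in each line (1 library each), with exact 95% Poisson intervals for values above 0 and no bar where the gene is listed at 0. Fgfr2 is highest in P4 (41.0 CPM), Fgfr3 in M1 (13.7 CPM) and Fgfr1 in P5 (29.8 CPM).

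Upstream sequences were read for the FGF receptor genes that P4 and M1 each contained, Fgfr2 and Fgfr3, and for Kit, which was listed at 0 in both. Each is the 250 bases before a RefSeq transcript start (GRCm38.p6, the build called mm10), written 5′ to 3′ on the strand of the gene, with capitals at GC boxes (GGGCGG on either strand, the sequence that SP1 family factors bind). They lie at chr7:130266809-130267058 on the minus strand for Fgfr2, and on the plus strand at chr5:33721474-33721723 for Fgfr3 and chr5:75574737-75574986 for Kit.
Fgfr2: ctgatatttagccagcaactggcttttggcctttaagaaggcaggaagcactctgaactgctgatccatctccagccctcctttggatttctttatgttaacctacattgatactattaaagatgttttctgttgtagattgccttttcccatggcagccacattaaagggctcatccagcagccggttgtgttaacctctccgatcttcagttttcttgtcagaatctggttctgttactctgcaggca
Fgfr3: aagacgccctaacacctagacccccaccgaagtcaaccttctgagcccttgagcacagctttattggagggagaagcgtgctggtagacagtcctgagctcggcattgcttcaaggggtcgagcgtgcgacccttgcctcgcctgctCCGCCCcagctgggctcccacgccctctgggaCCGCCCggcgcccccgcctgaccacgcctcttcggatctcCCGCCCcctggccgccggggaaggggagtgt
Kit: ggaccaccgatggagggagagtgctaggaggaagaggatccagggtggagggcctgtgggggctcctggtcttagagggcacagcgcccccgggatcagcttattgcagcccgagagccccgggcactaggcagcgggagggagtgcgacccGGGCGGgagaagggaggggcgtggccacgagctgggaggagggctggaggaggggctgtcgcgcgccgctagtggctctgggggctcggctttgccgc
The Fgfr2 window had a GC content of 44.0% and 2 CpG sites, with no GC box, and the bases after this start were not found in a GENCODE transcript of the gene, unlike those of the other windows. The Fgfr3 window had a GC content of 66.8%, 19 CpG sites and 3 GC boxes. The Kit window had 70.8%, 17 CpG sites and 1 GC box. The median over 32851 such windows of 250 bases was 52.4% with 6 CpG sites, and 32.7% of windows held a GC box. Of the 8 members with a window, 7 had a GC box in at least 1 of their windows, against 35.4% of all genes. The 8 members had 13 windows, and the 27025 genes with a window had 32851. Members thus had more windows per gene in which a motif could occur, which holds for the motifs below too. The AP-1 motif TGANTCA occurred upstream of 2 members, Met and Ddr1, against 7.82% of genes, on either strand. An E-box (CANNTG) occurred upstream of 5 members and 69.3% of genes, and a TATA box (TATAAA) upstream of 1 member and 14.3% of genes, each motif searched on both strands regardless of overlap with the others. A match describes the letters only.

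The FGF ligands were sparse, and which ligands were seen again differed between lines. Of 18 FGF ligand genes, P1 had reads for 6, P5 for 9, M1 for 2 and P4 for 0, and 8 were at 0 everywhere. Among all 14888 genes tested, P1 had reads for 13877, P5 for 14496, M1 for 9830 and P4 for 7783. Fgf2, a broad FGF receptor ligand, was at 0.969 and 26.6 CPM in P1 and P5 but listed at 0 in the other lines. Fgf7, a ligand of the epithelial FGFR2 form, was at 0.210 (P1) and 13.9 CPM (P5), with a listed 0 in P4 and M1. Fgf10, the ligand that drives lung branching through the same receptor form, was at 11.4 and 4.86 CPM in P1 and P5 but listed at 0 in the other lines. P4, the line with the highest Fgfr2, was therefore listed at 0 for every FGF ligand gene, as it was for 47.7% of all genes tested.

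Fgf1, which activates all FGF receptors, was at 1.05, 0, 0.694 and 21.8 CPM in P1, P4, P5 and M1. Fgf21, a hormone-like FGF that needs beta-Klotho, was at 6.45 CPM in M1 and listed at 0 in the primary lines, so it was tested through M1 alone. Klb, which encodes beta-Klotho, did not reach 1 CPM in any line. Fgf5 (2.60 CPM) and Fgf15 (4.77 CPM) were above 0 in P5 only. M1 was thus the line with the highest Fgf1 and the highest Fgfr3.

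The heparan sulfate proteins that assist FGF binding were partly shared by all lines. Sdc1 was at 122, 104, 135 and 150 CPM in P1, P4, P5 and M1. Sdc4 was at 99.0, 125, 76.5 and 233 CPM in P1, P4, P5 and M1. Both syndecans were highest in M1, Sdc4 by the wider margin. Gpc1, a glypican, was at 4.71, 29.5, 3.00 and 0.31 CPM in P1, P4, P5 and M1. Sdc3 ranged from 3.71 CPM in P1 to 19.9 CPM in P5, and Sdc2 from a listed 0 in P4 to 125 CPM in P5. Gpc4 was at 19.4 CPM in P5 and at most 0.210 CPM elsewhere. Fgfrl1, an FGF receptor without a kinase domain, was listed at 0 in P4 and ranged from 8.29 to 16.4 CPM in the other lines.

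Kit and its ligand gene did not follow each other over the lines. Kit, a receptor of mast cells and blood stem cells that has long been studied in SCLC (chr5:75574987-75656722), had 12 reads in P1 (1.26 CPM), 15 reads in P5 (1.30 CPM) and a listed 0 in P4 and M1. The P1 and P5 intervals overlapped almost fully. Kitl (chr10:100015615-100100416) was at 110, 0, 30.7 and 14.9 CPM in P1, P4, P5 and M1. Kitl in P1 was 3.58 times that in P5 and 7.41 times that in M1, with no overlap of the intervals. Of 6 mast cell markers, 5 were at 0 in every line and Hdc reached 0.260 CPM in P5.

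Fgfr1 and Kit were the 2 members at 1 CPM or more in P1 and P5 that were listed at 0 in both P4 and M1, of 8 members at that level. Over all genes at that level the share was 19.0%. Ret, the receptor of the GDNF family that acts in neural and neuroendocrine tissue (chr6:118151748-118197744), had 87 reads in P5 (7.55 CPM), 1 read in P1 (0.105 CPM) and a listed 0 in P4 and M1. Its presence thus rested on P5.

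The partners of RET were also mostly in P1 and P5, as were many genes in these libraries. Of all 14888 genes tested, 4046 were above 0 in P1 or P5 and listed at 0 in both P4 and M1. Gdnf was at 10.7 (P1) and 17 CPM (P5), with a listed 0 in P4 and M1. Nrtn, which encodes the ligand neurturin, was at 1.15, 20.9, 2.26 and 1.79 CPM in P1, P4, P5 and M1, and was the 1 gene of this list of 10 with reads in P4 or M1. Artn (2.00 CPM) was above 0 in P5 only. The coreceptors Gfra1, Gfra2 and Gfra4 were at 1.97, 5.90 and 3.64 CPM in P5, lower in P1 and listed at 0 in P4 and M1. P5 was the line with Ret, Gdnf and 3 coreceptors above 1 CPM.

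Genes for the MET ligand and its activators were at a few CPM at most. Hgf was at 2.41 and 0.521 CPM in P1 and P5 but listed at 0 in the other lines, where Met was at 113 and 28.3 CPM. Hgfac, an HGF-activating protease, was at 6.30 CPM in P1 only, and St14, which encodes matriptase, at 2.95 CPM in P5 only. The protease inhibitor Spint1 was at 4.83 (P1) and 5.73 CPM (P5), with a listed 0 in P4 and M1. Spint2 was at 0.840, 0.144, 0.868 and 3.58 CPM in P1, P4, P5 and M1.

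The other TAM genes were less even than Axl. Gas6, the AXL ligand, was at 0.210, 0, 1.13 and 21.5 CPM in P1, P4, P5 and M1. Pros1, which encodes protein S, a ligand of TYRO3 and MERTK, was at 11.8 and 54.8 CPM in P1 and P5 but listed at 0 in the other lines. The 2 ligands were thus seen at their highest levels in different lines. Tyro3 was at 26.2, 0, 30.0 and 6.0 CPM in P1, P4, P5 and M1. Mertk was at 2.83 (P1) and 2.78 CPM (P5), and at most 0.0895 CPM in the others. M1 also held 128 CPM in all for 7 immune markers, against 0.0720 to 1.15 CPM in the primary lines, with Lyz2 (47.4 CPM), Fcer1g (39.2 CPM) and Laptm5 (39.1 CPM) present and the pan-leukocyte gene Ptprc at 0. Csf1r, the receptor tyrosine kinase of macrophages, was at 7.02, 0, 8.94 and 28.0 CPM in P1, P4, P5 and M1. The part of immune transcripts in the Gas6 level of M1 was not tested.

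The DDR genes and their collagens were mostly highest in P5. Ddr2, the DDR receptor of mesenchymal cells, was at 15.6, 53.4, 60.6 and 0.0895 CPM in P1, P4, P5 and M1. Of 10 genes (Ddr2 and 9 collagen genes), 9 were highest in P5, and the exception was Col4a1, highest in P1. P5 was the highest line for 38.2% of all genes tested. Col3a1 was at 34.0 (P1), 0.0720 (P4) and 483 CPM (P5) and listed at 0 in M1. Col8a1 was at 9.76 (P1) and 216 CPM (P5), with a listed 0 in P4 and M1. Col4a2 was at 71.3, 10.7, 72.5 and 2.15 CPM in P1, P4, P5 and M1. The 8 fibroblast markers, of which 3 are in the collagen list, summed to 1099 CPM in P5 and 33.7 to 115 CPM in the other lines. Of the 7 tested, 6 were highest in P5, whereas Dcn was highest in P1 (21.8 CPM, against 2.43 CPM in P5). Lum had 2 reads in P5 and was listed at 0 elsewhere. The part of the fibroblast markers in the Ddr1, Ddr2 and Fgfr1 levels of P5 was not tested.

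**Figure D3:**
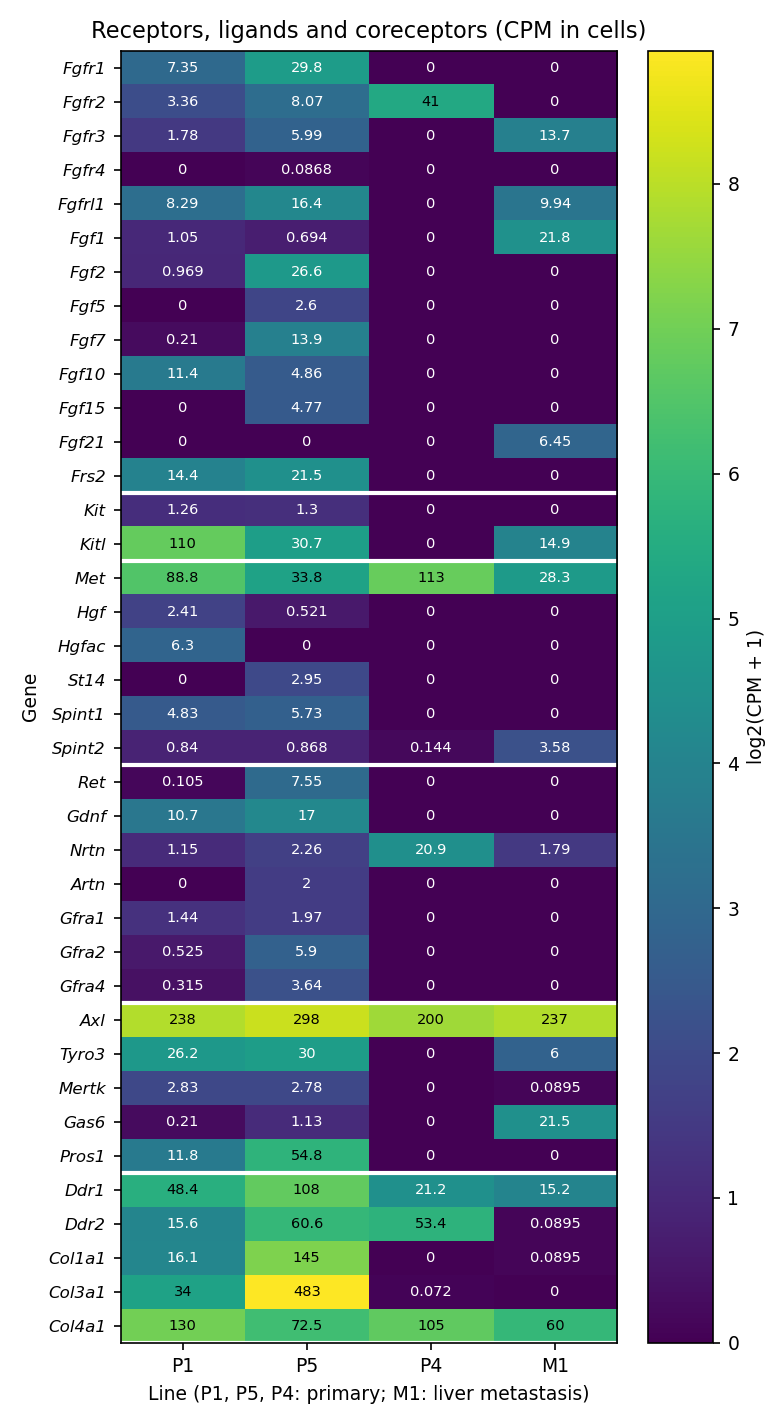
CPM (printed in each cell, coloured on the log2(CPM + 1) scale) of the receptors with their ligands, coreceptors and regulators in the 4 lines, in blocks for FGF, KIT, MET, RET, AXL and DDR from top to bottom. P4 is listed at 0 for every FGF ligand shown, Nrtn is the RET ligand with reads in P4 (20.9 CPM), and Gas6 is highest in M1 (21.5 CPM).

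The comparison of M1 with the primary lines asked whether receptor transcription differs in the metastatic line. The test was limma on log2(CPM + 1), two-sided, with Benjamini-Hochberg adjustment over the 14888 genes with at least 1 CPM in some library, which left out Fgfr4. Since M1 is 1 library, the p-values measure how far M1 stood from the primary lines relative to a spread of those lines. For each gene limma drew that spread towards a trend over all genes. No member passed the adjusted threshold of 0.05 (0 of 9), and 0 passed unadjusted at that level. Over all genes 0% were called after adjustment and 9.68% (1441 genes) passed unadjusted, while limma without the intensity trend called 0 as well.

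The largest fitted differences were those of FGF receptors. Fgfr2 differed by -3.57 ± 1.87 on the log2 scale (SE, adjusted p = 0.721 in limma), from a primary range of 3.36 to 41.0 CPM to a listed 0. Fgfr1 differed by -2.67 ± 2.41, with P4 as low as M1, and Fgfr3 by 2.45 ± 1.70. Ddr1 differed by -1.60 ± 1.10 and Met by -1.28 ± 0.88, and all of these shared the same adjusted p. Axl differed by -0.03 ± 0.43 and Kitl by 0.06 ± 3.05 (adjusted p = 0.970 and 0.992 in limma), and both signs turned under quantile normalization. Kitl had the widest error of the members and its primary lines ran from a listed 0 to 110 CPM. Ret and Kit differed by -1.08 ± 1.57 and -0.79 ± 0.75, and without P5 the Ret difference was -0.07. The median over the 9 members was -1.08, beside -0.53 over all genes tested. Relative to that median, Axl was 0.49 higher in M1 and Met fell by 0.75 on the log2 scale. The median over all genes moved to -0.10 with a filter of 10 CPM and to -0.06 with quantile normalization. The 0.49 is therefore not read as a rise of Axl.

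M1 lay above every primary line for 1 of the 9 members (Fgfr3) and below every primary line for 3 (Fgfr2, Met and Ddr1). Over all genes tested these shares were 22.0% and 20.7%. The line nearest to M1 was P5 for Met and P4 for Ddr1. Without P4, the library with the fewest genes, M1 lay above both remaining lines for 1 member and below both for 8, beside 27.4% and 58.8% of all genes. The 8 include Axl, which did not differ between P1 and M1 beyond counting error, and Ret, with 1 read in P1. That count was added after the data had been seen.

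**Figure D4:**
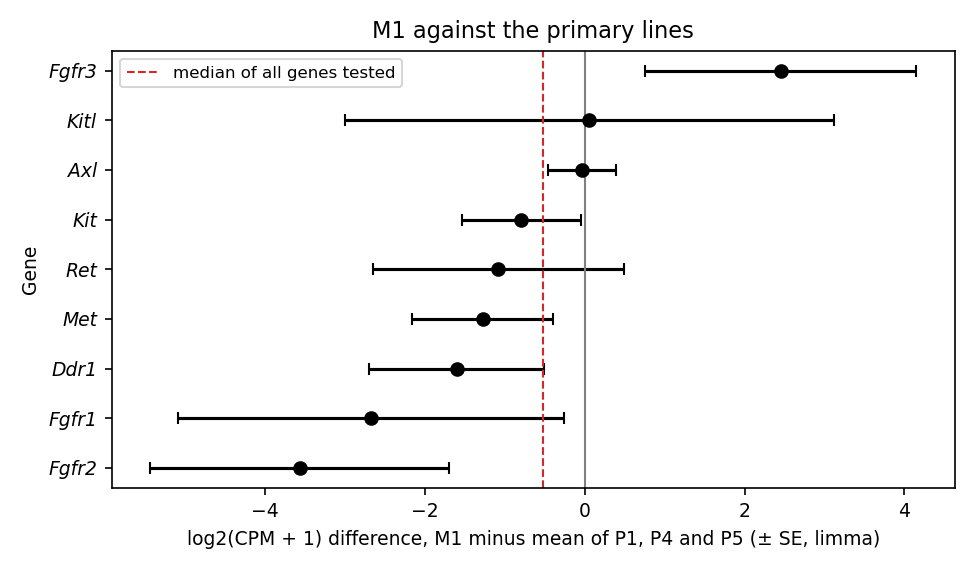
Difference of M1 from the mean of the 3 primary lines on the log2(CPM + 1) scale for the 9 members tested, with the standard error from limma as bars. The dashed line is the median over all 14888 genes (-0.53), and Fgfr3 at 2.45 and Fgfr2 at -3.57 are the outermost members.

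The libraries of like complexity were also set side by side, with no test since each is 1 library. From P1 to P5, 5 members were higher by at least 1 on the log2(CPM + 1) scale and 2 were lower, where 18.7% and 6.59% of all genes were. Ret (2.95) and Fgfr1 (1.88) had the largest rises in level from P1 to P5, followed by Fgfr3 (1.33), Ddr1 (1.15) and Fgfr2 (1.06). Kitl fell by 1.81 and Met fell by 1.37 on that scale, whereas Kit (0.03) and Axl (0.32) stayed within 1. The deposited columns of these 2 lines share a number that the labels do not explain. The design describes individual mice, and whether the number marks a shared origin was not tested.

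From P4 to M1, 2 members were higher and 2 lower by that measure, where 29.7% and 16.5% of all genes were. Kitl (3.99) and Fgfr3 (3.88) were higher in M1, both from a listed 0 in P4. Fgfr2 fell by 5.39 to a listed 0, and Met fell by 1.96. Fgfr1, Kit and Ret were listed at 0 in both. Axl (0.24) and Ddr1 (-0.45) stayed within 1.

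Other receptor tyrosine kinases had a median range over the lines of 3.45 on the log2(CPM + 1) scale, beside 3.10 for the members and 2.61 for all genes tested. Of 41 further receptor genes outside the ERBB family, P1 had reads for 27, P4 for 8, P5 for 34 and M1 for 15. Of all 14888 genes tested, P1 had reads for 13877, P4 for 7783, P5 for 14496 and M1 for 9830, the same order of lines. Of the 26 tested, 0 were called after adjustment and 0 passed unadjusted (0% and 9.68% of all genes). M1 lay above every primary line for 6 and below for 3 (22.0% and 20.7% of all genes). Insr, the insulin receptor, was at 10.2, 9.57 and 11.1 CPM in the primary lines P1, P4 and P5 but listed at 0 in M1. Ptk7, a pseudokinase of planar cell polarity, was at 2.83, 0, 7.81 and 32.8 CPM in P1, P4, P5 and M1. Ntrk3, the neurotrophin-3 receptor, was at 0.315, 0, 16.6 and 27.8 CPM in P1, P4, P5 and M1. Pdgfrb, a receptor of mesenchymal cells, was at 10.2 and 86.6 CPM in P1 and P5 but listed at 0 in the other lines.

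Among 22 adaptor and effector genes, 10 were above 0 in all 4 lines and 0 of the 20 tested were called, with 0 unadjusted. Over all genes tested, 45.1% were above 0 in all 4 lines, 0% were called and 9.68% passed unadjusted. Frs2, the docking protein of FGF receptors, was at 14.4 (P1) and 21.5 CPM (P5), with a listed 0 in P4 and M1, the lines with Fgfr2 and Fgfr3 respectively. Gab2, an adaptor used by KIT and FGF receptors, was at 4.72, 45.9 and 13.8 CPM in the primary lines P1, P4 and P5 but listed at 0 in M1, the same order of lines as Fgfr2. Grb10, an adaptor that restrains insulin receptor signals, was at 31.0 and 101 CPM in P1 and P5 but listed at 0 in the other lines. Pik3r2, a PI3K regulatory subunit, was at 62.6, 0.0720, 47.6 and 1.61 CPM in P1, P4, P5 and M1. Grb2, the common adaptor of these receptors, was lowest in P4 (131 CPM) and highest in M1 (215 CPM).

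Of 10 genes of receptor turnover, 9 were tested and 0 were called, with 0 unadjusted, where 0% and 9.68% of all genes were. Adam10, a sheddase, was at 78.6, 55.8, 129 and 42.7 CPM in P1, P4, P5 and M1. Cblb, a ubiquitin ligase for active receptors, was at 6.51, 0, 15.1 and 8.68 CPM in P1, P4, P5 and M1. Ptprj, a receptor phosphatase, was at 7.35, 0, 6.16 and 18.7 CPM in P1, P4, P5 and M1. Hgs, which sorts ubiquitinated receptors, was at 25.7 CPM (357 reads) in P4 and listed at 0 in the other lines. These include P1 and P5, the libraries with the most genes, and the cause of the zeros was not tested.

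Among the partner lists, 0 genes were called after adjustment. Unadjusted, 2 of 7 FGF ligands (Fgf1 and Fgf21), 1 of 4 TAM and ligand genes (Gas6) and 1 of 10 DDR and collagen genes (Ddr2) were under the threshold, and 0 in the coreceptor, HGF and GDNF lists (7, 5 and 6 tested), where 9.68% of all genes were. Fgf21 had entered the test through M1 alone, so its p-value carries no weight. On the log2 scale Fgf1 differed by 3.91 ± 1.13 (SE, adjusted p = 0.408 in limma) and Gas6 by 4.04 ± 1.08 (adjusted p = 0.373). Ddr2 differed by -5.13 ± 1.20 (adjusted p = 0.336), with M1 at 1 read.

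The neuroendocrine, epithelial and fibroblast markers varied more widely than the members. The median range over the lines on the log2(CPM + 1) scale was 5.55 for neuroendocrine, 5.39 for epithelial and 6.45 for fibroblast genes. For the members it was 3.10, with 4.94 for the FGF receptors among them. It was 3.26 for the 2 endothelial genes tested and 1.31 for the 1 hepatocyte gene. The immune range of 5.33 rests on 4 genes that entered the test through M1 alone, so nothing is read from it. Ncam1, a neural adhesion molecule used to mark SCLC, was at 299 to 1057 CPM in all lines. Of 10 neuroendocrine genes, P1 had reads for 2, P4 for 1, P5 for 10 (with Neurod1 at 1 read) and M1 for 6. Among all 14888 genes tested these counts were 13877, 7783, 14496 and 9830 for P1, P4, P5 and M1. Neurod1 reached 134 CPM in M1 but no more than 0.0868 CPM in any primary line. Insm1, a neuroendocrine transcription factor, was at 0, 0, 6.94 and 74.0 CPM in P1, P4, P5 and M1. The epithelial keratin Krt8 was at 1543, 451, 32.5 and 454 CPM in P1, P4, P5 and M1. Other epithelial genes ran differently, with Epcam at 1.26, 0, 27.7 and 5.37 CPM and Cdh1 at 14.6, 0, 49.6 and 28.5 CPM in P1, P4, P5 and M1. P5, the line with all 10 members above 0, had the lowest Krt8 but the highest Epcam and Cdh1, and the highest fibroblast marker sum (1099 CPM). Endothelial markers summed to 19.3 CPM in P5 and at most 0.329 CPM elsewhere, and hepatocyte markers were at 0 in M1. By limma 0 marker genes were called after adjustment. Unadjusted, 3 of 10 neuroendocrine genes were under the threshold, and 0 of 5 epithelial, 7 fibroblast, 2 endothelial and 1 hepatocyte genes were, where 9.68% of all genes were. Of the 10 neuroendocrine genes 2 entered the test through M1 alone, Neurod1 and Syp, and both are among the 3. All 4 immune genes tested entered through M1 alone, so nothing is read from their p-values. The part of these marker differences in the receptor levels was not tested.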

How the data were processed

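Total RNA of 4 untreated lines was sequenced, 1 library each. The labels name a total RNA kit and the methods of the study a kit for 3' ends of mRNA, so the library type is given differently. If whole transcripts were read, levels of different genes also depend on transcript length. Per the processing notes of the submitters the reads were placed on mm10, with a counting tool not given in the sources consulted. The authors deposited CPM values, 54838 rows. The 85 rows without a symbol, at most 0.0130% of a library, were left out and duplicate symbols were added up. In each library the modal nonzero value was set to 1 read. Between 79.0% and 88.9% of values were whole reads (tolerance 0.001 reads), and a count model was not used. The floor of 3 reads equalled 0.216 to 0.315 CPM.

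Lines were grouped by title into primary (P1, P4, P5) and metastasis (M1). The limma package (version 3.58.1, R 4.3.3; lmFit, then eBayes with trend) was applied to log2(CPM + 1) values of genes reaching 1 CPM in any library. Changes of genes near 0 are understated by the pseudocount. Only the 3 primary lines inform the spread, which is taken to hold for M1 too. Where lines share a mouse or culture, p-values measure only the spread between these libraries. The script was tested on simulated data. The members, the 16 gene lists and the tests were chosen with earlier results of these data known. Named were all 10 members, every ligand or coreceptor with at least 1 CPM in a line, the 4 genes of each other list with at least 10 CPM in a line and the largest differences, and the 2 genes nearest to each member with at least 10 CPM, by Euclidean distance of log2(CPM + 1). Col4a1, Grb2, Csf1r, Syp, Ncam1, Hdc, Klb, Ptprc and the neighbouring genes were named after their values were seen. Alternatives covered pseudocount, filter, scaling, variance prior, a term for the shared column number, rows that share a symbol and each primary line left out. Sequences and coordinates are from RefSeq (GRCm38.p6), which matched all 10 members by symbol.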

Additional observations from a re-analysis of the deposited data

How the results depend on the processing

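No gene was called in any of the 12 alternatives. Of 106 member differences recomputed, 99 kept their sign or were 0, and 7 reversed, all of Axl or Kitl. Axl was 0.13 with median-of-ratios scaling, 0.083 with quantile normalization and 0.24 with the column number as a term, and ran from -0.17 to 0.12 with 1 primary line left out. Kitl was -0.46 with a pseudocount of 5 and -0.26 with quantile normalization, and ran from -1.90 (without P4) to 1.49 with 1 primary line left out. With 1 primary line left out, the other members ran from -4.00 to -1.53 (Fgfr1, the latter without P5), -4.29 to -2.65 (Fgfr2), 1.74 to 3.14 (Fgfr3), -1.19 to -0.59 (Kit, the former without P4), -1.79 to -0.93 (Met), -1.62 to -0.07 (Ret, the latter without P5) and -2.18 to -1.03 (Ddr1). The column-number term set P1 and P5, whose columns share a number, apart from P4 and M1, whose columns share none. No label calls this a batch. With that term M1 is compared with P4 alone, which put Fgfr1, Kit and Ret at 0 and Fgfr2 at -5.39. Quantile normalization moved the median of all genes by 0.47, from -0.53 to -0.06. With a filter of 10 CPM, 7 members were tested, since Kit and Ret dropped out. Without P4, the count of members with M1 below every remaining line went from 3 to 8. The cause of these changes was not tested. No paired analysis was possible, because M1 is 1 library and the labels do not link it to any primary line. Depth limits Kit, Ret and Fgfr4, with at most 15, 87 and 1 reads in a library.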

Other observations

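The genes with levels nearest to a member over the 4 lines are given as a description, since 4 points cannot separate many patterns. Axl lay nearest to Tbca and Pfdn1 (distances 0.16 and 0.23 on the log2 scale), 2 genes of tubulin folding and prefoldin. Met lay nearest to Troap (0.43) and Imp4 (0.49), and Ddr1 to Tcaf1 (0.26) and Bet1l (0.33). Fgfr1 lay nearest to Sgtb (0.17) and Acvr1 (0.18), Fgfr2 to Coq8a (0.40) and Zbtb21 (0.43), Fgfr3 to Gm13889 (0.29) and Purg (0.32), and Kitl to Mndal (0.69) and Knl1 (0.78).

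Neighbouring genes were also read. Kit lies on chromosome 5 between Pdgfra and Kdr, which also encode receptor tyrosine kinases, at gaps of 376.8 and 276.1 kb in GRCm38.p6. Pdgfra was at 9.87 (P1) and 28.6 CPM (P5), with a listed 0 in P4 and M1, as Kit was. Kdr was at 12.5 CPM in P5 and listed at 0 elsewhere. Wdr11, 526.7 kb from Fgfr2 on chromosome 7, was at 3.88, 18.9 and 5.99 CPM in the primary lines P1, P4 and P5 but listed at 0 in M1, the same order of lines as Fgfr2. Ate1, the nearer neighbour at 124.7 kb, was at 39.6, 13.0, 50.4 and 41.3 CPM in P1, P4, P5 and M1, lowest where Fgfr2 was highest. Tacc3, 49.5 kb from Fgfr3, was highest in P1 (162 CPM), a different order from that of Fgfr3. Both neighbours of Met, Cav1 and Capza2, were above 0 in every line. Of the neighbours of Axl, Hnrnpul1 was above 0 in every line, whereas Cyp2s1 (13.5 kb) was listed at 0 in P4 and at 0.0895 CPM in M1.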
